A study of Homo sapiens with 18 samples.

Results

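SKP2 (ENSG00000145604.17, hg38 chr5:36151989-36196849, plus strand) was described through every one of its introns with a splice-site measurement. An intron was taken as an SKP2 intron when at least 1 of its ends matched an exon boundary of the gene in GENCODE release 44, and 17 of the 233650 introns in the deposited values met this rule. All 17 had a value in all 18 libraries. The cells were SHEP.tet21n, a human neuroblastoma line in which doxycycline (Dox) switches off a MYCN cDNA carried by the cells, so MYCN comes from a transgene in 1 cell line. Cells received 2 µg/mL Dox (MYCN-) or the vehicle DMSO (MYCN+), and every culture was also transfected, either with a non-targeting control siRNA (SNRPD3+) or with SNRPD3 siRNA #1 or #2 (SNRPD3-). SNRPD3 encodes a core Sm protein of the small nuclear ribonucleoproteins that remove introns. The 6 groups, with 3 replicate libraries each, were MYCN-/SNRPD3+ (wildtype), MYCN-/SNRPD3- with siRNA #1 or #2, MYCN+/SNRPD3+, and MYCN+/SNRPD3- with siRNA #1 or #2. The study describes its replicates as independent biological ones, and all came from the same cell line.

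SKP2 is an F-box protein, the part of an SCF ubiquitin ligase that binds the substrate, while SKP1, CUL1 and RBX1 form the rest of the enzyme. Together with its partner CKS1B, SKP2 recognises phosphorylated p27 (CDKN1B) and marks it for degradation, which releases CDK2 and lets cells pass from G1 into S phase. The F-box lies towards the N-terminus of the protein, and the leucine-rich repeats and C-terminal tail that contact CKS1B and the substrate are encoded by the later exons.

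The measurement was PSI (percent spliced in), the share of reads spanning any intron of a cluster that removed the intron in question, where a cluster is a set of introns linked by shared splice sites. PSI adds up to 100% within a cluster, so introns of 1 cluster rise at the expense of each other. It reports neither how much SKP2 RNA a library held nor how many introns were retained, and the reads behind each PSI are unknown. MYCN repression, SNRPD3 knockdown and the identity of the cells were therefore not checked in these libraries. Every MYCN- library received Dox and every MYCN+ library DMSO. Differences that go with MYCN and those that go with Dox itself therefore cannot be told apart. In bulk RNA, a shift of isoform use within each cell and a change in the share of cells that use an isoform cannot be told apart. SKP2 was chosen by its PSI values in an earlier analysis of the same data. The exact ranking behind the choice is not known and was taken to be MYCN+/SNRPD3- against wildtype cells, so these groups are compared as a description with no test. The other 11 comparisons were tested, share libraries with these groups or with each other, and may have been in view when SKP2 was chosen. For the introns of exon 10b, exon 5 skipping and exon 3 skipping, library 3 of each MYCN+/SNRPD3- group was the highest of its group. Many of the differences that rest on it are therefore also given without it. Group means, shares and correlations include it.

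GENCODE lists 26 SKP2 transcripts, of which 9 are protein coding, 11 are marked for nonsense-mediated decay and 5 retain an intron. The canonical transcript, SKP2-202, has 10 exons and encodes 424 residues. Its last exon, exon 10 (chr5:36181818-36184319), is 2502 nt long, and coding sequence takes up its first 211 nt. SKP2-201 joins exon 9 instead to an acceptor 2022 nt further downstream, within exon 10 and 1808 nt past the canonical stop codon. The alternative last exon that starts there, called exon 10b here (chr5:36183840-36184041, 202 nt), holds 169 nt of coding sequence. SKP2-201 thus encodes 410 residues, 14 fewer than SKP2-202, and differs from it only after exon 9. In percentage points of PSI, SKP2 varied most in the choice between these acceptors. The sites are therefore given here from the hg38 plus strand, with the first or last 2 bases of the intron in capitals. They are the donor of exon 9 (chr5:36177290-36177298), the acceptor of exon 10 (chr5:36181796-36181820) and the acceptor of exon 10b (chr5:36183818-36183842).
exon 9 donor: actGTaagt
exon 10 acceptor: aagtctttttcttcctttccAGtga
exon 10b acceptor: tacttgaaattattgtttacAGatt

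Each of the 17 introns began with GT and ended with AG. In the 20 bases before the AG, pyrimidines made up 85% at the exon 10 acceptor and 60% at the exon 10b acceptor. Among 13863 annotated acceptors on chromosome 5 the median was 75%, and 16.06% of them were at or below the value of exon 10b. The spliced products differ from the first base after exon 9. They are shown here across the junction, with the last 12 bases of exon 9 in lower case and the first 18 bases of the last exon in capitals.
exon 9 to exon 10 junction: tgaaactttactTGAACTTGGAGAAATTCC
exon 9 to exon 10b junction: tgaaactttactATTAGTGACAAGAGCTGG

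In the canonical last exon, the coding stretch that a switch from SKP2-202 to SKP2-201 removes from the protein (chr5:36181818-36182031) is the following, with the stop codon in capitals.
exon 10 coding part: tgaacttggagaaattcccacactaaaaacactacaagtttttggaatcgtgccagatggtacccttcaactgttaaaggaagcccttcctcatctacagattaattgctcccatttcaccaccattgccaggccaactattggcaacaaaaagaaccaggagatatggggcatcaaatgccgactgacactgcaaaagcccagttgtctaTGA

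The 17 introns fell into 3 clusters, and no other gene shared their splice sites. Of these introns, 12 matched an annotated SKP2 intron and 5 did not. They included 6 of the 9 introns of the canonical transcript, and the other 3, between exons 1 and 2, 6 and 7, and 8 and 9, were not analysed here. Tests covered the 10 SKP2 introns whose PSI averaged between 1% and 99%, among 152722 such introns of all genes, and 7 fell below this filter.

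**Figure D1:**
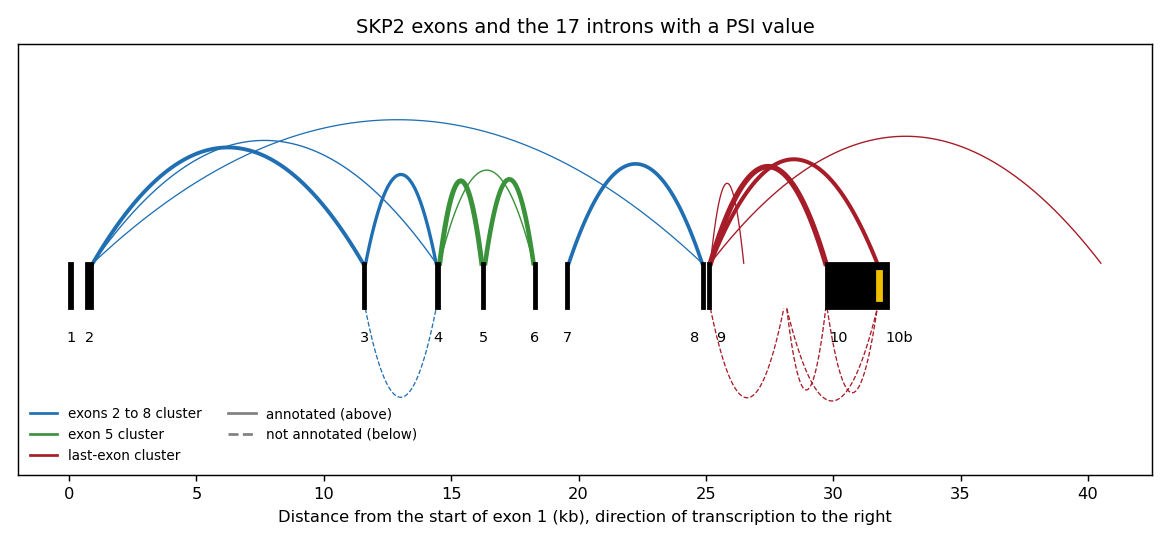
Exons of SKP2 (black boxes, with exon 10b in yellow inside exon 10) and the 17 introns with a PSI value, by distance in kb from the start of exon 1. Arcs above the exons are the 12 annotated introns and dashed arcs below are the 5 others, colour gives the cluster, and a thicker line means a higher mean PSI over 18 libraries. The exon 9 donor is joined to 5 acceptors, among which exon 10 and exon 10b have the thickest arcs.

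The last-exon cluster held 8 introns, and the pair ending at exon 10 and exon 10b took up most of it. The other 6 together had from 3.22% to 5.98% of the cluster in each library. SKP2-201 and SKP2-203 share the join of exon 9 to exon 10b, and its PSI cannot tell them apart. GENCODE marks SKP2-203 for nonsense-mediated decay. The intron from exon 9 to exon 10b (chr5:36177292-36183840, coordinates being the exon bases on either side), specific to these transcripts, had the widest spread of group means of all SKP2 introns, 20.9 percentage points. In wildtype libraries 1 to 3 its PSI was 27.7%, 25.4% and 23.1%. In MYCN+/SNRPD3+ libraries it was 33.6%, 31.4% and 30.3%. With MYCN repressed it was 37.5%, 29.9% and 37.7% under SNRPD3 siRNA #1.
It was 46.1%, 44.5% and 42.2% under siRNA #2 with MYCN repressed. With MYCN expressed it was 44.1%, 41.2% and 49.7% under siRNA #1. Under siRNA #2 with MYCN expressed it was 43.8%, 45.1% and 50.0%. Wildtype libraries were thus the 3 lowest of all 18. Every library with an SNRPD3 siRNA lay above every wildtype library, and MYCN-/SNRPD3- library 2 with siRNA #1 was the lowest of them.
The group means, from low to high, were 25.4% ± 2.29 (SD, n = 3) in wildtype, 31.8% ± 1.69 in MYCN+/SNRPD3+, 35.0% ± 4.43 and 44.3% ± 1.95 in MYCN-/SNRPD3-, and 45.0% ± 4.30 and 46.3% ± 3.24 in MYCN+/SNRPD3- cells, siRNA #1 before #2 in each pair. Libraries of neighbouring groups in this order did not overlap between wildtype and MYCN+/SNRPD3+, nor between the MYCN-/SNRPD3- groups. They overlapped between MYCN+/SNRPD3+ and MYCN-/SNRPD3- with siRNA #1, and among the last 3 groups.

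The intron from exon 9 to exon 10 (chr5:36177292-36181818), part of SKP2-202 and of 10 other transcripts, ran in the opposite direction, as the composition of the cluster requires. Its PSI was 67.0%, 68.7% and 73.4% in wildtype and 60.7%, 64.8% and 64.8% in MYCN+/SNRPD3+ libraries. In MYCN-/SNRPD3- cells it was 57.9%, 66.2% and 59.1% with siRNA #1, and 50.0%, 51.8% and 54.1% with siRNA #2. For MYCN+/SNRPD3- cells the values were 50.5%, 54.1% and 45.6% with siRNA #1, and 51.6%, 51.3% and 45.9% with siRNA #2. Exon 10 was the more used acceptor in all libraries of wildtype, MYCN+/SNRPD3+ and both MYCN-/SNRPD3- groups. In MYCN+/SNRPD3- cells exon 10b exceeded it in library 3 of each siRNA. Counted over these introns alone, exon 10b had a share of 26.7% ± 2.67 (SD, n = 3) in wildtype and 33.4% ± 1.99 in MYCN+/SNRPD3+ cells. Its share was 36.5% ± 4.61 and 46.0% ± 2.08 in MYCN-/SNRPD3- cells, and 47.3% ± 4.48 and 48.3% ± 3.35 in MYCN+/SNRPD3- cells, siRNA #1 before #2. Because of the composition, the differences of the exon 10 intron repeat those of exon 10b and are no separate evidence.

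**Figure D2:**
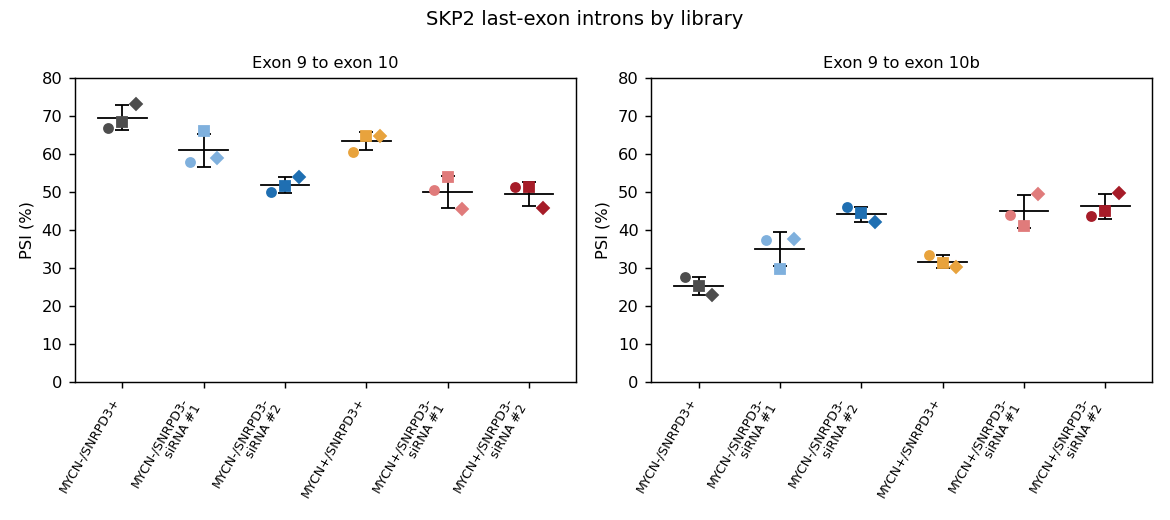
PSI in percent (y axis) of the introns from exon 9 to exon 10 (left) and to exon 10b (right) in the 6 groups. Points are libraries (circle, square and diamond for replicates 1, 2 and 3), horizontal lines are group means and error bars 1 SD (n = 3). Exon 10b lies lowest in wildtype, with a mean of 25.4%, and at 44.3% to 46.3% in 3 of the 4 groups with an SNRPD3 siRNA.

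For the comparison on which SKP2 was taken to be chosen, exon 10b had a PSI 19.6 percentage points higher in MYCN+/SNRPD3- cells with siRNA #1 than in wildtype, and 20.9 points higher with siRNA #2. Both values share the wildtype libraries. Among the 10 SKP2 introns, 6 had libraries that did not overlap with wildtype under siRNA #1, where 15.3% of all tested introns did not overlap, and 6 under siRNA #2, where 15.2% did not. Nothing is read from these counts, because the choice of SKP2 used the same libraries. Without library 3 of the MYCN+/SNRPD3- group, the difference of exon 10b from wildtype moved from 1.24 to 1.10 log2 odds for siRNA #1 and from 1.31 to 1.21 for siRNA #2, and the part of library 3 in the results was not tested further. Log2 odds, the scale of the tests, are log2((PSI + 0.01)/(1 - PSI + 0.01)) with PSI as a fraction. Without the offset, a difference of 1 would mean that the odds doubled. The offset shrinks the differences of rare introns, so those given for exon 5 skipping, exon 3 skipping and the SKP2-213 intron understate the change in odds.

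Each tested comparison asked whether an intron's log2 odds differed between groups, in a limma fit of all 18 libraries. Limma borrows information across introns to judge the spread, and the Benjamini-Hochberg adjustment ran over all 152722 tested introns. An intron was called when its adjusted p was under 0.05. No SKP2 intron was called in any of the 11 tested comparisons. Beside the adjusted p, the text counts introns with an unadjusted p under 0.05, and introns whose libraries did not overlap between the groups. Each count is given with its share among all tested introns. No enrichment is read from the SKP2 counts, because SKP2 was chosen by its PSI in the same data. Where a count holds both introns of the last-exon pair, these are no separate evidence.

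With MYCN expressed and control siRNA, against wildtype, exon 10b had a PSI 6.38 points higher, and all 3 libraries lay above all 3 wildtype libraries. The difference was 0.44 ± 0.18 (SE) log2 odds (limma, adjusted p = 0.711). For exon 10 it was -0.40 ± 0.18 (limma, adjusted p = 0.800). By limma, 0 of the 10 SKP2 introns were called against 0.0543% of all tested introns, and these 2 had an unadjusted p under 0.05 against 6.19% of all. Libraries did not overlap for 3 SKP2 introns, against 11.8% of all. The third was the intron from exon 3 to exon 4, at 27.0% ± 0.338 (SD, n = 3) in wildtype and 28.4% ± 0.459 with MYCN.

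With MYCN repressed, SNRPD3 siRNA #1 went with an exon 10b PSI 9.64 points higher than in wildtype, or 0.64 ± 0.18 (SE) log2 odds (limma, adjusted p = 0.786). SNRPD3 siRNA #2 went with a PSI 18.9 points higher, or 1.20 ± 0.18 log2 odds (limma, adjusted p = 0.0629), the smallest adjusted p of SKP2 in any tested comparison. All 3 libraries were above wildtype with each siRNA. The side of the threshold on which the siRNA #2 comparison fell depended on single settings and libraries. Over the alternatives, the smallest adjusted p of this comparison ranged from 0.0276 to 0.218 in limma. The intron to exon 10b was called in 5 of the 27 alternatives and not called in 22. Leaving out a library of either group compared gave an adjusted p from 0.0843 to 0.218 in limma, and fitting only these groups gave 0.133. The intron was called without MYCN-/SNRPD3- library 2 of siRNA #1 (adjusted p = 0.0314 in limma) or without MYCN+/SNRPD3- library 3 of siRNA #1 (adjusted p = 0.0462 in limma), neither of which belongs to the groups compared, and also with an offset of 0.05 (0.0446), on the PSI scale (0.0276) and with the trend and robust options (0.0280).
Limma called 0 of 10 SKP2 introns with siRNA #1, against 0.0105% of all introns, and 4 had an unadjusted p under 0.05, against 4.54%. With siRNA #2 it called 0 of 10, against 0.0151%, and 3 had an unadjusted p under 0.05, against 4.69%. Libraries did not overlap for 4 SKP2 introns with siRNA #1, against 9.68% of all, and for 4 with siRNA #2, against 9.85%.

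With MYCN expressed, the group mean of exon 10b was 13.2 points above MYCN+/SNRPD3+ with siRNA #1 and 14.5 points above it with siRNA #2, and neither difference passed the adjusted threshold. The values were 0.79 ± 0.18 (SE) log2 odds for siRNA #1 (limma, adjusted p = 0.261) and 0.87 ± 0.18 for siRNA #2 (limma, adjusted p = 0.286). All 3 libraries were higher with each siRNA. Without library 3 of the siRNA group the differences were 0.66 and 0.77 log2 odds. Limma called 0 of 10 introns with siRNA #1, against 0.0144% of all, and 3 had an unadjusted p under 0.05, against 7.25%. It called 0 of 10 with siRNA #2, against 0.0164%, and 2 had an unadjusted p under 0.05, against 6.17%. Libraries did not overlap for 5 SKP2 introns with each siRNA, against 11.5% and 11.3% of all.

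Whether MYCN went with a change when SNRPD3 was depleted was asked within each siRNA. Under siRNA #1, exon 10b was 9.96 points higher in MYCN+/SNRPD3- than in MYCN-/SNRPD3- cells, or 0.59 ± 0.18 (SE) log2 odds (limma, adjusted p = 0.366). Under siRNA #2 it was 2.02 points higher, or 0.12 ± 0.18 log2 odds (limma, adjusted p = 0.941), and the libraries overlapped. Without library 3 of the MYCN+/SNRPD3- groups these differences were 0.46 and 0.011 log2 odds. By limma, 0 of 10 introns were called under siRNA #1, against 0.0491% of all, and 3 had an unadjusted p under 0.05, against 7.55%. Under siRNA #2, limma called 0, against 0.0393%, and 1 intron had an unadjusted p under 0.05, against 7.27%. Libraries did not overlap for 5 introns under siRNA #1, against 11.9% of all, and for 1 under siRNA #2, against 13.3%.

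The interaction subtracts the knockdown difference in MYCN- cells from that in MYCN+ cells. It was 0.15 ± 0.25 (SE) log2 odds for exon 10b with siRNA #1 (limma, adjusted p = 1). With siRNA #2 it was -0.33 ± 0.25 (limma, adjusted p = 1). A dependence of the knockdown difference on MYCN was thus not shown for exon 10b, and the signs differed between siRNAs. Leaving out MYCN-/SNRPD3- library 2 of siRNA #1 turned the first to -0.011. Limma called 0 of 10 SKP2 introns in each interaction, against 0.017% and 0.0138% of all introns, and 0 had an unadjusted p under 0.05, against 4.07% and 3.97%.

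The siRNAs were compared with each other because they target 1 gene. With MYCN repressed, exon 10b was 9.26 points lower with siRNA #1 than with siRNA #2, a difference of -0.55 ± 0.18 (SE) log2 odds (limma, adjusted p = 1), and all 3 libraries were lower. With MYCN expressed the difference was -0.08 ± 0.18 log2 odds (limma, adjusted p = 1). Limma called 0 of 10 introns with MYCN repressed, against 0.0105% of all, and 2 had an unadjusted p under 0.05, against 4.24%. With MYCN expressed it called 0, against 0.0124%, and 0 had an unadjusted p under 0.05, against 5.13%. Libraries did not overlap for 2 and 1 SKP2 introns, against 8.8% and 9.02% of all.

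**Figure D3:**
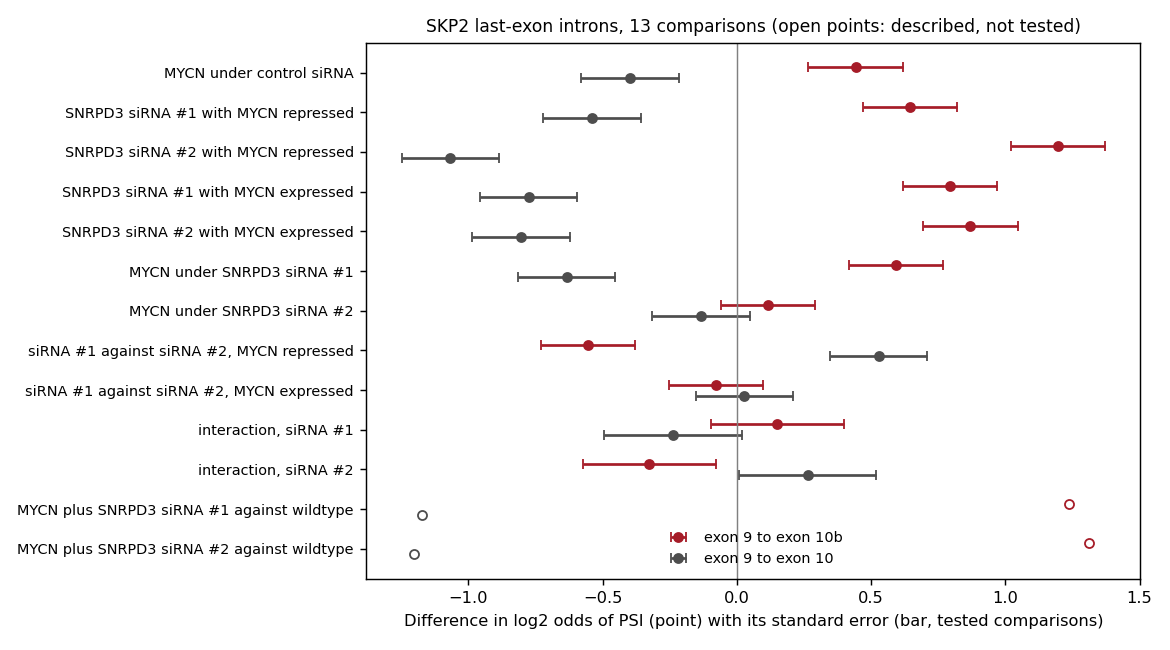
Differences in log2 odds of PSI (x axis) for the introns from exon 9 to exon 10b (red) and to exon 10 (grey) in 13 comparisons (y axis), from 1 limma fit of 18 libraries. Bars are 1 standard error, and open points without bars are the 2 comparisons that were described and not tested. For exon 10b the 4 knockdown differences run from 0.64 to 1.20 and those of MYCN from 0.12 to 0.59.

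The exon 5 cluster held 3 introns. Exon 5 (chr5:36168313-36168447) is 135 nt long, or 45 codons, so skipping it keeps the reading frame, and it encodes part of the leucine-rich repeats. The exon is shown with the intron bases that flank it in capitals (chr5:36168311-36168449), as it is what the skipping isoform loses.
exon 5: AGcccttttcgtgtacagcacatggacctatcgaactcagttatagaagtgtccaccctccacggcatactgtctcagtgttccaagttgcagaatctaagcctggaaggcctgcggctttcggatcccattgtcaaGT

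The skipping intron from exon 4 to exon 6 (chr5:36166662-36170344), found in SKP2-209 and SKP2-205, had a PSI of 0.906%, 0.616% and 1.47% in wildtype and 1.36%, 1.73% and 1.65% in MYCN+/SNRPD3+ libraries. In MYCN-/SNRPD3- cells it was 1.49%, 1.89% and 2.33% with siRNA #1 and 1.84%, 1.23% and 1.53% with siRNA #2. For MYCN+/SNRPD3- cells the values were 2.38%, 2.54% and 4.80% with siRNA #1 and 2.40%, 1.90% and 4.07% with siRNA #2. The highest values were thus in library 3 of each MYCN+/SNRPD3- group, and every library of these groups lay above all MYCN-/SNRPD3- libraries of the same siRNA.
Between MYCN+/SNRPD3- and MYCN-/SNRPD3- cells the difference was 0.53 ± 0.26 (SE) log2 odds under siRNA #1 (limma, adjusted p = 0.689) and 0.56 ± 0.26 under siRNA #2 (limma, adjusted p = 0.681), where this was the 1 SKP2 intron without overlap. Without library 3 of the MYCN+/SNRPD3- group these were 0.27 and 0.32.
With MYCN expressed, siRNA #1 went with a difference of 0.70 ± 0.26 (SE) log2 odds (limma, adjusted p = 0.569), which was 0.44 without library 3. With siRNA #2 it was 0.53 ± 0.26 (limma, adjusted p = 0.827), and 0.29 without library 3. All libraries with either siRNA were above all MYCN+/SNRPD3+ libraries. With MYCN repressed the difference was 0.57 ± 0.26 for siRNA #1 (limma, adjusted p = 1) and 0.37 ± 0.26 for siRNA #2 (limma, adjusted p = 1). The latter was 0.22 without wildtype library 2 and 0.54 without wildtype library 3. The exon 5 differences depended on the offset, and the one for siRNA #1 with MYCN expressed was 0.95 with an offset of 0.001 and 0.34 with 0.05. As a share of skipping over skipping plus the mean of the flanking introns, exon 5 skipping stood at 1.97% ± 0.849 (SD, n = 3) in wildtype and 3.11% ± 0.375 in MYCN+/SNRPD3+ cells. It stood at 3.74% ± 0.813 and 3.03% ± 0.590 in MYCN-/SNRPD3- cells for siRNAs #1 and #2. In MYCN+/SNRPD3- cells it stood at 6.26% ± 2.52 and 5.41% ± 2.15 in the same order, where library 3 had 9.16% and 7.83%. The including introns, from exon 4 to exon 5 (chr5:36166662-36168313) and from exon 5 to exon 6 (chr5:36168447-36170344), belong to 20 transcripts each. Their PSI ranged from 49.2% to 54.5% and from 43.1% to 49.3% over all libraries.

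Exons 2 to 8 gave the remaining cluster, of 6 introns. The canonical intron from exon 2 to exon 3 (chr5:36153042-36163645) had group means from 34.9% to 36.6%. Group means of the intron from exon 3 to exon 4 (chr5:36163756-36166519) ran from 27.0% to 29.6%. Those of the intron from exon 7 to exon 8 (chr5:36171733-36176965) ran from 32.0% to 35.0%. None of these introns had an unadjusted p under 0.05 in a tested comparison, and each group mean lay within 2.94 points of the others.

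Exon 3 (chr5:36163645-36163756) is 112 nt long, which is not a multiple of 3 bases. GENCODE marks both transcripts without it that contain the skipping intron, SKP2-205 and SKP2-215, for nonsense-mediated decay. The skipping intron from exon 2 to exon 4 (chr5:36153042-36166519) had a PSI of 1.22%, 1.23% and 0.962% in wildtype and 1.36%, 1.04% and 1.31% in MYCN+/SNRPD3+ libraries. In MYCN-/SNRPD3- cells it was 1.48%, 1.13% and 0.801% with siRNA #1 and 1.13%, 1.09% and 1.66% with siRNA #2. For MYCN+/SNRPD3- cells the values were 1.93%, 1.61% and 2.51% with siRNA #1 and 1.36%, 1.41% and 2.82% with siRNA #2. In MYCN+/SNRPD3- cells, 2 of 3 libraries with siRNA #1 and library 3 with siRNA #2 lay above every wildtype, MYCN+/SNRPD3+ and MYCN-/SNRPD3- library.
Between MYCN+/SNRPD3- and MYCN-/SNRPD3- cells under siRNA #1 the difference was 0.51 ± 0.20 (SE) log2 odds (limma, adjusted p = 0.573). Under siRNA #2 it was 0.30 ± 0.20 (limma, adjusted p = 0.838), and 0.067 without library 3. Against MYCN+/SNRPD3+ cells the differences were 0.43 ± 0.20 and 0.33 ± 0.20 for siRNAs #1 and #2 (limma, adjusted p = 0.698 and 0.909), and the latter was 0.097 without library 3. With MYCN repressed they were -0.010 ± 0.20 and 0.098 ± 0.20 (limma, adjusted p = 1 for both). With offsets of 0.001 and 0.05 the difference of MYCN under siRNA #1 was 0.80 and 0.20, and that of siRNA #1 with MYCN expressed was 0.66 and 0.18.

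**Figure D4:**
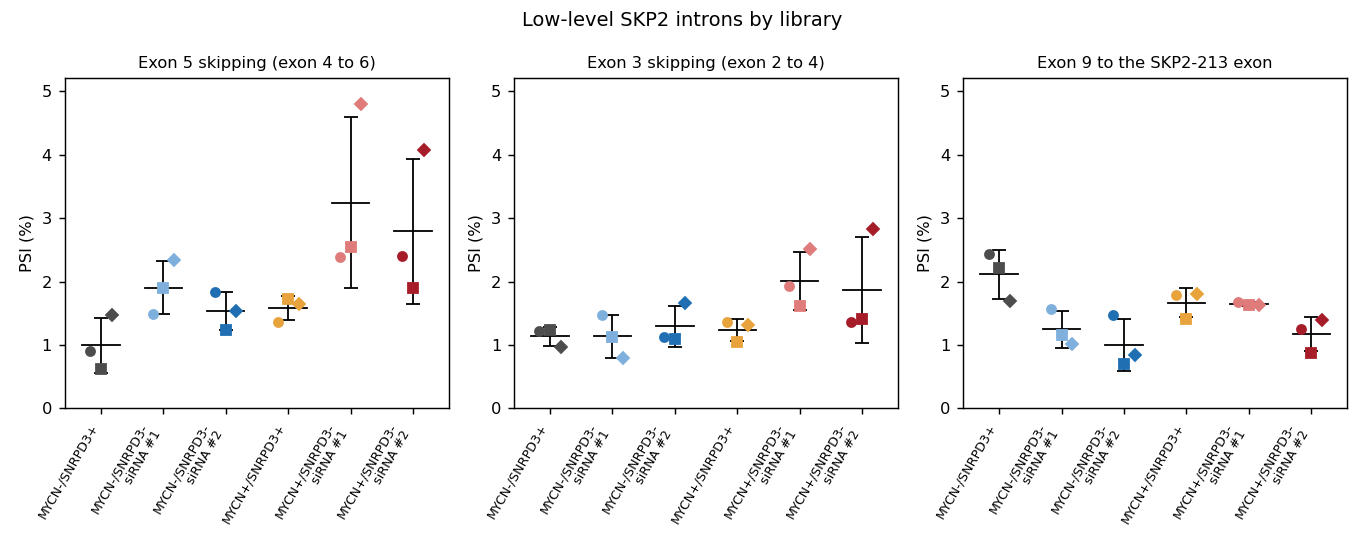
PSI in percent (y axis) of the introns that skip exon 5 (left), skip exon 3 (middle) or join exon 9 to the SKP2-213 exon (right) in the 6 groups. Points are libraries (circle, square and diamond for replicates 1, 2 and 3), horizontal lines are group means and error bars 1 SD (n = 3). The diamonds of both MYCN+/SNRPD3- groups lie highest in the left and middle panels, at 4.80% and 4.07% for exon 5.

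Another ending joins exon 9 to an exon far downstream (chr5:36177292-36192621), found in the protein-coding transcript SKP2-213. Its acceptor had 50% pyrimidines in the 20 bases before the AG, and 4.155% of annotated acceptors on chromosome 5 were at or below this value. PSI was 2.43%, 2.22% and 1.69% in wildtype and 1.78%, 1.40% and 1.81% in MYCN+/SNRPD3+ libraries. In MYCN-/SNRPD3- cells it was 1.57%, 1.16% and 1.01% with siRNA #1 and 1.47%, 0.699% and 0.840% with siRNA #2. For MYCN+/SNRPD3- cells the values were 1.68%, 1.64% and 1.63% with siRNA #1 and 1.25%, 0.879% and 1.39% with siRNA #2. All libraries with an SNRPD3 siRNA lay below all wildtype libraries, in the direction of exon 10 and opposite to exon 10b.
With MYCN repressed the difference was -0.48 ± 0.17 (SE) log2 odds for siRNA #1 (limma, adjusted p = 1) and -0.66 ± 0.17 for siRNA #2 (limma, adjusted p = 0.622). With MYCN expressed it was -0.01 ± 0.17 for siRNA #1 (limma, adjusted p = 1) and -0.31 ± 0.17 for siRNA #2 (limma, adjusted p = 0.875). With offsets of 0.001 and 0.05 the difference for siRNA #2 with MYCN repressed was -1.07 and -0.26, and that for siRNA #1 was -0.74 and -0.20.

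The 7 introns below the filter were rare throughout and were not tested. The long intron from exon 2 to exon 8 (chr5:36153042-36176965), specific to SKP2-204, leaves out exons 3 to 7, 621 nt or 207 codons. Its group means ran from 0.201% in wildtype to 0.554% in MYCN+/SNRPD3- cells with siRNA #1, and its libraries from 0.132% to 1.04%. The intron from exon 9 to an annotated acceptor in intron 9 (chr5:36177292-36178598), found in 6 transcripts such as SKP2-206 and SKP2-222, had group means from 0.543% to 0.780%. The lowest of these, in MYCN-/SNRPD3- cells with siRNA #2, included a library at 0.011%.
The other 5 are outside the annotation. An intron from a donor 15 nt, or 5 codons, upstream of the exon 3 end (chr5:36163741-36166519) had group means from 0.245% to 0.382%. The ends of 3 introns would bound a segment of 120 nt in intron 9 (chr5:36180170-36180289). The intron leading into it from exon 9 (chr5:36177292-36180170) had group means from 0.204% to 0.523%. Its lowest mean, in MYCN-/SNRPD3- cells with siRNA #2, came from libraries at 0.00978%, 0.593% and 0.0101%. Those leading out of it had group means from 0.752% to 0.823% to exon 10 (chr5:36180289-36181818) and from 0.322% to 0.674% to exon 10b (chr5:36180289-36183840). To exon 10b, library 3 was at 0.0087% in wildtype, 0.0084% in MYCN-/SNRPD3- with siRNA #1 and 0.0083% in MYCN+/SNRPD3- with siRNA #2. The fifth joins a donor 59 nt into exon 10 to the exon 10b acceptor (chr5:36181876-36183840), with group means from 0.370% to 0.741%. For it, library 1 was at 0.0106% in wildtype and 0.0098% in MYCN-/SNRPD3- cells with siRNA #2. Summed PSI of these 5 introns was 2.53% ± 0.755 (SD, n = 3) in wildtype, and the other group means ran from 2.28% to 2.95%.

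The other genes of the pathway were read from 4 gene lists in the same fit. The lists were written with earlier results of these data known. By limma, 0 introns of any list were called in either direction in any of the 11 tested comparisons. The share called among all tested introns was 0.0105% to 0.0543% per comparison, so nothing is read from the 0. Over all tested introns, from 3.97% to 7.55% per comparison had an unadjusted p under 0.05. Of the SCF-SKP2 ligase and its helpers, 9 of 10 genes had 44 tested introns, of which from 0 to 5 had such a p, and the 5 (11.36%) belonged to MYCN under siRNA #1, where 7.55% of all introns did. Substrates of SKP2 and the CDKs and cyclins they act on had 81 tested introns in 12 of 16 genes, with 2 to 10. The 10 (12.35%) belonged to siRNA #2 with MYCN expressed, against 6.17% of all. CDKN1B (p27), CDKN1C, CDT1 and FOXO1 had no tested intron. Regulators of SKP2 had 132 introns in 11 genes, with 0 to 11, and the 11 (8.33%) belonged to MYCN under siRNA #2, against 7.27% of all. Other F-box substrate receptors had 153 introns in 15 genes, with 0 to 13, and the 13 (8.50%) belonged to siRNA #1 with MYCN expressed, against 7.25% of all.
The comparison of siRNA #2 with wildtype, in which SKP2 had its smallest p, gave median absolute PSI differences of 0.313, 0.841, 0.877 and 1.30 points for these lists in the order given, against 1.49 points over all tested introns. The member of each list with the largest PSI difference in that comparison is given, the comparison having been picked after its values were seen. In the ligase list it was CUL1, the scaffold of the ligase, at 90.9% ± 1.15 (SD, n = 3) in wildtype and 92.8% ± 1.10 with siRNA #2 (chr7:148699029-148729962, limma, adjusted p = 1). In the substrate list it was E2F1, a transcription factor of S-phase genes, at 65.1% ± 3.97 in wildtype and 75.6% ± 2.77 with siRNA #2 (chr20:33676979-33677105, limma, adjusted p = 0.568). With siRNA #1 and MYCN repressed the E2F1 intron was at 64.4% ± 3.30, no higher than in wildtype. Among the regulators it was AKT1, a kinase of the PI3K pathway, at 72.4% ± 8.90 in wildtype and 56.6% ± 10.1 with siRNA #2 (chr14:104792722-104793127, limma, adjusted p = 1). Among other receptors it was FBXL20, at 67.1% ± 9.89 and 58.9% ± 25.9 (chr17:39343241-39402173, limma, adjusted p = 1). Across all comparisons the widest difference of any list member was in FZR1, an activator of the anaphase-promoting complex. Its intron at chr19:3506474-3522956 was at 53.4% ± 9.63 in MYCN+/SNRPD3+ cells and 89.4% ± 15.7 with siRNA #1 and MYCN expressed (limma, adjusted p = 0.771). With siRNA #2 it was at 67.84% ± 40.66 with MYCN expressed and 47.55% ± 45.02 with MYCN repressed. Libraries of the same group thus differed widely, and the reads behind these values are unknown.

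The introns whose pattern was most like exon 10b were ranked by Pearson's r of log2 odds over the 18 libraries, among 67878 introns of 10649 other genes whose PSI averaged between 5% and 95%. This ranking is a description. The points share libraries and groups and are not independent. The median absolute r was 0.185, and 105 introns reached 0.8. Of the 5 most alike genes, 4 are given here. They were SCML2, a Polycomb group protein (r = 0.915), LUC7L3, a factor associated with the U1 ribonucleoprotein (r = 0.909), RBMS1, a protein that binds single-stranded nucleic acid (r = -0.902), and CDK2, the kinase released when p27 is degraded and also a member of the second list (r = 0.898).
The SCML2 intron (chrX:18241379-18246577) was at 13.9% ± 3.95 (SD, n = 3) in wildtype and 20.05% ± 2.31 in MYCN+/SNRPD3+ cells. It was at 24.4% ± 7.84 and 30.9% ± 5.23 in MYCN-/SNRPD3- cells, siRNA #1 before #2. In MYCN+/SNRPD3- cells it was at 34.1% ± 9.52 and 37.9% ± 12.2, in the same order. The CDK2 intron (chr12:55968948-55971044) was at 4.56% ± 0.286 (SD, n = 3) in wildtype, 6.06% ± 0.0826 in MYCN+/SNRPD3+ cells, 6.53% ± 1.22 and 7.21% ± 1.27 in MYCN-/SNRPD3- cells, and 9.53% ± 1.59 and 8.87% ± 1.50 in MYCN+/SNRPD3- cells. RBMS1 (chr2:160282304-160284775) ran the other way, with 22.1% ± 1.15 (SD, n = 3) in wildtype and 18.9% ± 1.35 in MYCN+/SNRPD3+ cells. It had 17.05% ± 1.48 and 15.5% ± 0.663 in MYCN-/SNRPD3- cells, and 14.3% ± 1.21 and 15.2% ± 1.13 in MYCN+/SNRPD3- cells. LUC7L3 (chr17:50746702-50750501) had 81.7% ± 0.564 (SD, n = 3) in wildtype and 82.75% ± 0.675 in MYCN+/SNRPD3+ cells. It had 84.6% ± 1.55 and 85.7% ± 0.8 in MYCN-/SNRPD3- cells, and 87.2% ± 2.21 and 86.9% ± 0.9955 in MYCN+/SNRPD3- cells. These differences from wildtype were not tested here, as the same libraries set the ranking. In both MYCN+/SNRPD3- groups, library 3 was the highest for SCML2, LUC7L3 and CDK2 and the lowest for RBMS1. How far these libraries set the values of r was not tested.

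**Figure D5:**
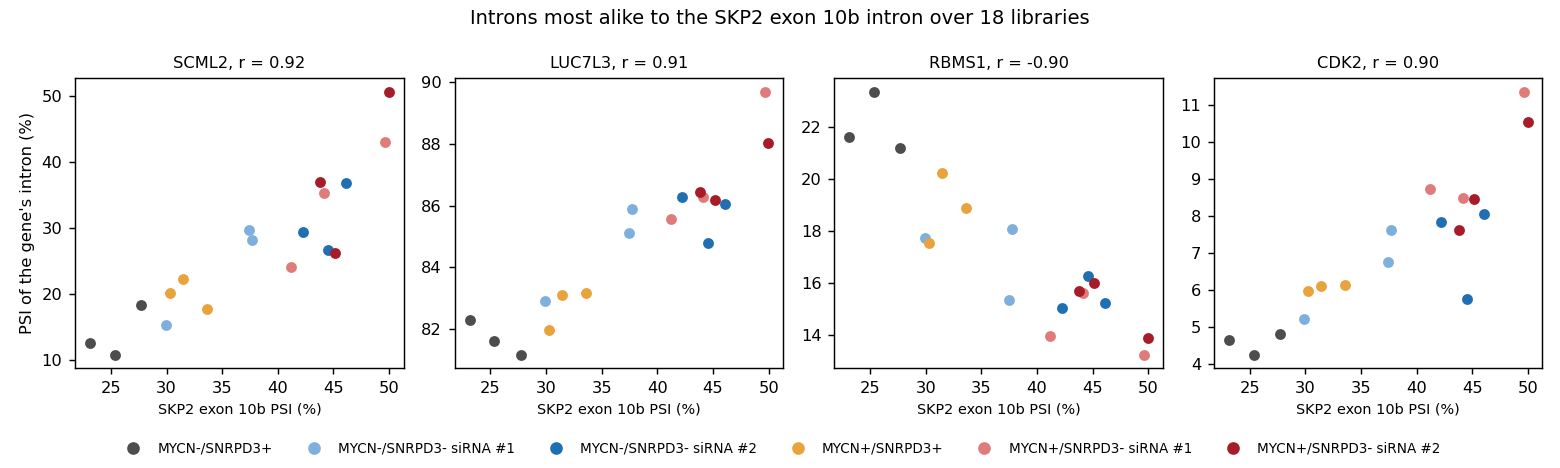
PSI in percent of 1 intron of each of 4 of the 5 most alike genes (y axis, a separate scale in each panel) against the PSI in percent of the SKP2 exon 10b intron (x axis), with 1 point for each of 18 libraries, coloured by group. Wildtype libraries lie at the left, and MYCN+/SNRPD3- libraries lie at the right together with those of MYCN-/SNRPD3- with siRNA #2. The values of r run from 0.898 for CDK2 to 0.915 for SCML2, with -0.902 for RBMS1.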

How the data were processed

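RNA from 18 libraries of SHEP.tet21n cells was sequenced after TruSeq Stranded mRNA-seq preparation. The authors mapped reads to hg38 with STAR (v2.5.0a), and their leafcutter workflow grouped introns into 51819 clusters. The authors' deposited PSI values are fractions, given per library and never exactly 0 or 1, and sum to 1 in each cluster. The deposited comparisons (an FDR and a delta PSI for pairs of groups) were not used. Depth is unknown, so no interval was computed, and replicate spread is the only error. Groups came from the sample labels, and every column was matched to a library.

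Introns were placed on GENCODE release 44, while the authors named release 28. PSI was transformed to log2 odds with an offset of 0.01 and fitted with limma 3.58.1 (R 4.3.3) by lmFit and eBayes, with 6 group means and no covariate, restricted to introns averaging 0.01 to 0.99. The fit was tested on simulated data. Tables and plots were made in Python 3.11.15 with numpy 2.4.6, pandas 2.3.3 and matplotlib 3.10.9. SKP2, its comparisons and all lists were chosen with earlier results of these data known. Every SKP2 intron was named, the exon 10b intron led because its group means had the widest range among introns averaging 5% to 95%, and list genes were named only for a call or as the member with the largest PSI difference, given here for siRNA #2 with MYCN repressed and over all comparisons. Of the 5 genes most alike to the exon 10b intron, 1 is not reported here. Alternatives were offsets of 0.001 and 0.05, the PSI scale, other filters, a fit of only the groups compared, a replicate block, trend and robust eBayes, an adjusted p under 0.01, and leaving out each library.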

Additional observations from a re-analysis of the deposited data

How the results depend on the processing

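In 10 of the 11 tested comparisons, 0 SKP2 introns were called under every alternative. The exception was siRNA #2 against wildtype with MYCN repressed, where 1 intron, that to exon 10b, was called instead of 0 with an offset of 0.05, on the PSI scale, and with trend and robust eBayes, and where leaving out each library gave 0 to 1. Its difference in log2 odds was 1.09 with the offset of 0.05, 1.20 with trend and robust eBayes, 0.189 as a PSI fraction, and 1.11 to 1.28 with each library left out. Differences whose sign turned when a library was left out were all uncalled. With each library left out in turn, the exon 10b interaction with siRNA #1 ran from -0.011 to 0.26. For siRNA #1 against siRNA #2 with MYCN expressed, exon 10b ran from -0.21 to 0.033 and exon 10 from -0.085 to 0.15. Exon 3 skipping with MYCN repressed ran from -0.13 to 0.11 with siRNA #1 and from -0.017 to 0.16 with siRNA #2. The SKP2-213 intron with siRNA #1 and MYCN expressed ran from -0.080 to 0.034. On average across introns, same-numbered libraries of different groups did not deviate together. The mean correlation was 0.00615 over 45 pairs against -0.00307 over 90 pairs with different numbers, with 0 pairs over 0.1. Such averages cannot decide this for a single intron. For exon 10b and exon 3 skipping, library 3 was the highest in each MYCN+/SNRPD3- group. In the other groups library 3 was the highest in some and the lowest in others. Whether the MYCN+/SNRPD3- libraries numbered 3 deviated together at these introns was not tested. These libraries were also the highest or lowest of their groups for SCML2, LUC7L3, RBMS1 and CDK2, which were picked for their likeness to exon 10b. With the replicate number as a block, 0 SKP2 introns were called in each comparison, and the adjusted p of exon 10b for siRNA #2 with MYCN repressed was 0.125 in limma. Depth could not be weighed, because no reads are given. Introns below 1% PSI rest on an unknown number of reads and allow no statement on change.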
